A study of Mus musculus with 12 samples.

Results

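The genes described here are 10 that run the urea cycle and the neighbouring breakdown of amino acids in periportal hepatocytes: *Cps1*, *Otc*, *Ass1*, *Asl*, *Arg1*, *Nags*, *Slc25a15*, *Gls2*, *Sds* and *Hal*. They were chosen by name, and all 10 were present among the 45777 genes of the deposited table and passed the filter on low counts, which kept 16509 genes over all livers. The data were RNA-seq of liver tissue from 12 male C57BL/6 mice aged 10 to 12 weeks, 3 in each of 4 groups. The groups were WT mice given vehicle, WT mice given acetaminophen (APAP), mice labelled Gα12-/- given vehicle and mice labelled Gα12-/- given APAP. The mice labelled Gα12-/- (KO label below) are described as lacking both copies of *Gna12*, which encodes the G protein subunit Gα12, and the WT mice as their littermates. According to the study's methods, APAP was a single overdose given after an overnight fast, and the liver was taken a few hours later. Whether the vehicle mice were fasted as well is not stated in the sources used here.

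Ammonia released when amino acids are broken down is toxic, and the liver disposes of it as urea. Periportal hepatocytes, which meet the blood as it enters the liver lobule, carry the urea cycle, whereas a thin rim of pericentral cells scavenges the remaining ammonia as glutamine. APAP injures mainly the pericentral cells, because these carry the cytochrome P450 enzymes that turn it into a reactive product.

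Counts on genes ranged from 49737950 to 69566079 per liver. Levels are given in CPM, which are counts relative to the library total after scaling by the trimmed mean of M values (TMM), and TPM, which also divides by transcript length, is used to compare genes with each other and to sum lists of genes. Differences in counts were tested with edgeR (quasi-likelihood F-test) and were called at a Benjamini-Hochberg adjusted p under 0.05 over all genes tested. The library of WT APAP replicate 1 stood apart: it held 238212 counts of the haemoglobin gene *Hba-a1* against 2551 to 7713 in the other livers, its TMM factor was 0.750, and its 8 neutrophil markers summed to 131 CPM against 1.15 to 22.6 CPM elsewhere. The 8 general hepatocyte markers, *Alb* among them, summed to 61142 to 103495 TPM in every liver. By CPM, the scale of the tests, they summed to 150811 in WT APAP replicate 1 and to 73855 to 107971 in the other livers. *Gna12* itself was not lower under the KO label, at 43.5 to 67.2 CPM in the 6 livers so labelled and 23.7 to 66.7 CPM in the 6 WT livers. The study itself reports PCR of tail DNA and liver qRT-PCR for *Gna12*, and Gα12 immunoblots, in WT and *Gna12* KO mice. Whether those were the mice sequenced is not stated there. The deleted exons are not stated in the sources used here, and a count over the whole gene does not check a partial deletion, so the genotype is named throughout by its label.

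After APAP, 3 of the 10 genes fell when all 12 livers were compared with the genotype label as a covariate: *Hal*, *Gls2* and *Asl*. None of the 10 rose by edgeR or DESeq2, and the 4 genes with an unadjusted p under 0.05 in edgeR were these 3 and *Cps1*, where 6132 of all 16509 genes had one. Among all 16509 genes tested, 11.4% were called lower and 14.0% higher, so 3 of 10 stood beside a broad shift of the liver transcriptome. The median log2 fold change of the 10 genes was -0.37, against 0.01 over all genes tested. The genes split by direction: *Cps1*, *Otc*, *Ass1*, *Asl*, *Gls2* and *Hal* had negative log2 fold changes, and *Arg1*, *Nags*, *Slc25a15* and *Sds* had positive ones, none of which passed the test. No gene of the 10 separated the 6 APAP livers from the 6 vehicle livers without overlap, whereas 5.37% of all genes were lower without overlap. Because the tissue was analysed in bulk, fewer cells of a type and less RNA per cell cannot be told apart.

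**Figure D1:**
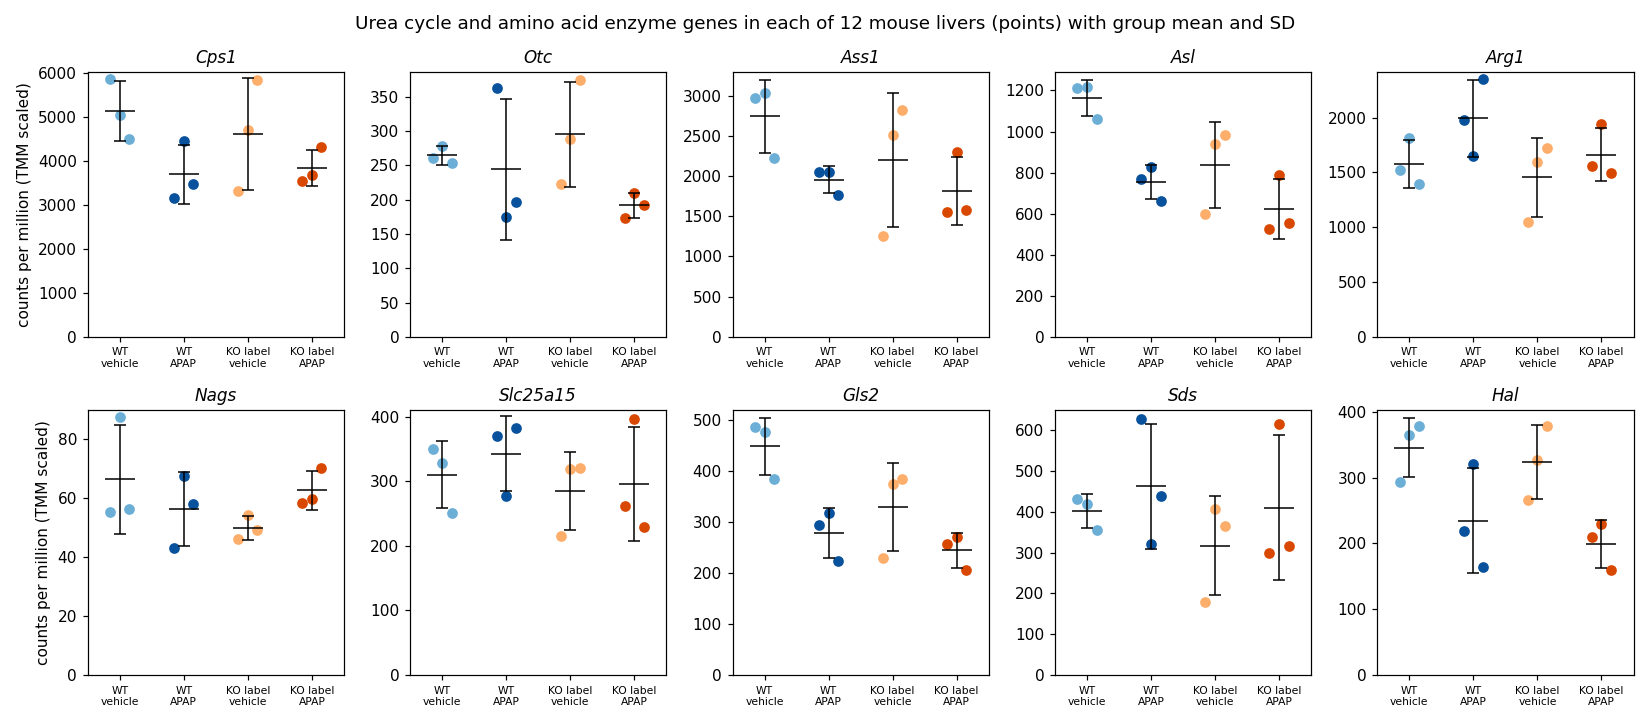
Level in CPM (TMM scaled) of the 10 genes in each liver, with points for single livers, a horizontal bar for the group mean and whiskers for the SD (n = 3 livers per group). The group means of *Asl*, *Gls2* and *Hal* after APAP lie below those with vehicle under both genotype labels, those of *Arg1* and *Sds* lie above, and the lowest KO label vehicle liver is replicate 1 in every panel.

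Promoter sequences were read where the RefSeq promoter table for GRCm38.p6 held them, which was the case for 5 of the 10 genes (*Otc*, *Ass1*, *Nags*, *Slc25a15* and *Hal*). Each window holds 250 bases before and 50 bases after a start site. Motifs were searched on both strands. They were TTNNGNAA, a consensus for C/EBP proteins, which are liver factors known to act on urea cycle genes, and TATAAA, the TATA box. The CRE half-site, which cyclic AMP signalling uses, was searched as TGACG. The half-element for the hepatocyte factor HNF4 was searched as CAAAG. The 120 bases just upstream of the window's start site are shown for *Hal*, which had the lowest log2 fold change of the 10 genes over all 12 livers, for *Otc*, whose window also held C/EBP matches, and for *Ass1*, whose window held none of the motifs. The *Otc* window uses a start site inside the annotated gene, which begins at base 10252230, so the stretch shown for *Otc* lies partly within the gene. Capitals mark the bases that match any of the motifs.
Hal, chr10:93488648-93488767, plus strand: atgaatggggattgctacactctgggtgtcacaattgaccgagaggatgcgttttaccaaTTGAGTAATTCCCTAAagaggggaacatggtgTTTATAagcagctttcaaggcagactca
Otc, chrX:10252185-10252304, plus strand: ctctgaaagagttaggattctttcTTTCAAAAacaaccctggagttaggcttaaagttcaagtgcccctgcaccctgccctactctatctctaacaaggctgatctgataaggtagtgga
Ass1, chr2:31470150-31470269, plus strand: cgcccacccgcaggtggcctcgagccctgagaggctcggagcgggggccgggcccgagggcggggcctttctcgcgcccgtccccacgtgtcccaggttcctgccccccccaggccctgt

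The *Hal* window held 5 matches to the C/EBP letters, of which the pair starting 60 and 52 bases before the start site lies end to end in the printed stretch. A TATA box match on the reverse strand starts 28 bases before the start site. The *Otc* window held 2 C/EBP matches, starting 143 and 96 bases before its start site, which lies inside the annotated gene. The *Ass1* window had a GC content of 74.0%, against a median of 52.7% over all windows. Of the 32851 windows in the table, 40.7% held at least 1 C/EBP match, 13.6% a TATA box match, 20.8% the CRE half-site and 53.9% the HNF4 half-element. A C/EBP match was present in the windows of 3 of the 5 genes (*Otc*, *Nags* and *Hal*). These are letter matches in the reference sequence and no factor binding was measured.

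*Gls2* (chr10:128194635-128210004, GRCm38) encodes the liver glutaminase of mitochondria, which releases ammonia from glutamine in periportal cells. WT vehicle livers held 486, 477 and 385 CPM, and KO label vehicle livers 231, 375 and 384 CPM. After APAP the levels were 295, 319 and 224 CPM in WT livers and 257, 272 and 206 CPM under the KO label. Every WT APAP liver was below every WT vehicle liver, while under the KO label vehicle replicate 1 lay within the APAP range. Over all 12 livers *Gls2* fell by 32.1% (log2 fold change -0.56, SE 0.15, edgeR adjusted p = 0.0185). In WT livers alone the log2 fold change was -0.68 (95% interval -1.18 to -0.17, edgeR adjusted p = 0.158), and under the KO label it was -0.42 (-0.91 to 0.07, adjusted p = 0.193). The call over 12 livers was lost without KO label APAP replicate 3 (edgeR adjusted p = 0.0504).

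*Nags* (chr11:102145513-102149528) encodes the mitochondrial enzyme that makes N-acetylglutamate, the obligatory activator of the product of *Cps1*. Its level was 55.2, 87.6 and 56.3 CPM in WT vehicle livers and 43.0, 67.7 and 58.2 CPM in WT APAP livers. The KO label livers held 46.2, 54.4 and 49.3 CPM with vehicle and 58.2, 59.6 and 70.2 CPM after APAP. The KO label groups did not overlap, and the WT groups did. The log2 fold change under the KO label was 0.34 (95% interval 0.05 to 0.63), which was not called (edgeR adjusted p = 0.0910). In WT livers it was -0.23 (-0.81 to 0.36, adjusted p = 0.670). The test of the difference between these effects gave a log2 difference of 0.56 (95% interval -0.08 to 1.20, edgeR adjusted p = 0.872). Both values leaned on WT vehicle replicate 2, the liver with 87.6 CPM: without it the *Nags* log2 fold change in WT livers was 0.02 and the difference between the effects 0.31. An antisense gene, *Gm11586*, overlaps *Nags* and held 20 to 188 counts per liver against 2163 to 5093 for *Nags*.

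*Cps1* (chr1:67122426-67231267) encodes carbamoyl-phosphate synthetase 1, which fixes ammonia at the entry of the cycle. WT vehicle livers held 5875, 5056 and 4505 CPM and WT APAP livers 3168, 4462 and 3472 CPM, so the highest APAP liver lay just under the lowest vehicle liver. Under the KO label the levels were 3311, 4713 and 5844 CPM with vehicle and 3545, 3693 and 4320.1 CPM after APAP, and these groups overlapped. The log2 fold change over all 12 livers was -0.37 (95% interval -0.71 to -0.03), which was not called (edgeR adjusted p = 0.106). Without KO label vehicle replicate 1 it was -0.47 and was called (edgeR adjusted p = 0.0343).

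*Otc* (chrX:10252230-10321024) encodes ornithine transcarbamylase, which joins carbamoyl phosphate to ornithine in the mitochondrion. Its level under the KO label was 223, 288 and 375 CPM with vehicle and 174, 209.7 and 192 CPM after APAP, without overlap. WT vehicle livers held 261, 279 and 253 CPM, and WT APAP livers 362, 175 and 196 CPM. WT APAP replicate 1, the liver rich in haemoglobin transcripts, had the highest *Otc* level after APAP by CPM, but this depended on the scale. By TPM that liver held 154, within the 137 to 164 of the 6 APAP livers, and the 3 WT APAP livers (137 to 154) lay below the 3 WT vehicle livers (161 to 188). The log2 fold change under the KO label was -0.61 (95% interval -1.06 to -0.16, edgeR adjusted p = 0.0555) and in WT livers -0.10 (-0.79 to 0.59, adjusted p = 0.889). The difference between the effects was -0.51 on the log2 scale (95% interval -1.32 to 0.30, edgeR adjusted p = 0.878). Over all 12 livers *Otc* was not called (log2 fold change -0.37, edgeR adjusted p = 0.188), but without WT APAP replicate 1 it was (-0.56, adjusted p = 0.00585).

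*Slc25a15* (chr8:22375550-22398621) encodes the carrier that brings ornithine back into the mitochondrion. Vehicle livers spanned 216 to 349.5 CPM (median 320.5, n = 6) and APAP livers 229.5 to 396 CPM (median 323, n = 6), which overlapped almost entirely. The log2 fold change over all 12 livers was 0.10 (95% interval -0.26 to 0.46, edgeR adjusted p = 0.705).

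*Ass1* (chr2:31470270-31520670) encodes argininosuccinate synthetase, which adds aspartate to citrulline in the cytosol. WT vehicle livers held 2975, 3041 and 2220.3 CPM and WT APAP livers 2051, 2052 and 1761 CPM, without overlap. Under the KO label the levels were 1254, 2512 and 2830.2 CPM with vehicle and 1556, 2304 and 1580.1 CPM after APAP, so vehicle replicate 1 lay below all 3 APAP livers. *Ass1* was not called over the 12 livers (log2 fold change -0.38, 95% interval -0.80 to 0.04, edgeR adjusted p = 0.171), and was called without KO label vehicle replicate 1 (-0.52, adjusted p = 0.0265). The processed pseudogene *Gm5424* matches 99.5% of 1240 aligned bases of *Ass1* and held 1159 to 2123 counts per liver, against 74661 to 158429 for *Ass1*. How reads that match both were split is not stated in the sources used here.

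*Asl* (chr5:130011258-130024381) encodes argininosuccinate lyase, which releases fumarate and arginine. WT vehicle livers held 1214, 1216 and 1063 CPM and WT APAP livers 771, 829 and 662 CPM, a gap with no overlap. In mice with the KO label the values were 598, 937 and 981 CPM with vehicle and 525, 788 and 555 CPM after APAP, which overlapped because of vehicle replicate 1. Over all 12 livers *Asl* fell by 30.7% (log2 fold change -0.53, SE 0.15, edgeR adjusted p = 0.0225). The log2 fold change was -0.62 (95% interval -1.09 to -0.14, edgeR adjusted p = 0.168) in WT livers and -0.42 (-0.96 to 0.12, adjusted p = 0.236) under the KO label. The call over 12 livers was narrow. It was lost when any 1 of 6 livers was left out (KO label APAP replicates 1 and 3, KO label vehicle replicates 2 and 3, WT APAP replicate 3, WT vehicle replicate 1), with edgeR adjusted p-values up to 0.0582.

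*Arg1* (chr10:24915207-24927470) encodes liver arginase, which splits arginine into urea and ornithine and closes the cycle. It did not share the negative sign of *Asl* and *Ass1*. WT vehicle livers held 1519, 1814 and 1396 CPM, and WT APAP livers 1979, 1653 and 2352 CPM. The KO label livers held 1043, 1598 and 1726 CPM with vehicle and 1554, 1938 and 1496 CPM after APAP. The groups overlapped under both labels, and the log2 fold change over all 12 livers was 0.27 (95% interval -0.06 to 0.60, edgeR adjusted p = 0.229). The second arginase gene, *Arg2*, was at most 1.17 CPM in any liver.

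*Sds* (chr5:120476547-120483932) encodes serine dehydratase, which turns serine into pyruvate and ammonia, and *Hal* (chr10:93488768-93516761) encodes histidine ammonia lyase, which opens histidine breakdown by removing ammonia. *Sds* varied most between livers of a group: its coefficient of variation was 43.1% among the KO label APAP livers, which held 299.9, 615 and 318 CPM, against 4.97% for *Otc* among WT vehicle livers, the lowest of the 40 gene and group combinations. *Otc* itself came close to *Sds* among WT APAP livers, at 42.0%. The log2 fold change of *Sds* over all 12 livers was 0.29 (95% interval -0.23 to 0.81, edgeR adjusted p = 0.424). Its close relative *Sdsl* rose by 0.61 on the log2 scale (SE 0.16, edgeR adjusted p = 0.0144), from 10.9 to 26.4 CPM with vehicle to 22.5 to 32.7 CPM after APAP, ranges that overlapped. *Plbd2* on the opposite strand overlaps *Sds* by 651 bases, and 365 aligned bases of their transcripts match at 99.7%. It held 3134 to 5982 counts per liver, against 10674 to 38455 for *Sds*.

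*Hal* held 294, 364 and 378 CPM in WT vehicle livers and 218, 321 and 165 CPM in WT APAP livers, where replicate 2 reached into the vehicle range. In livers with the KO label it held 266, 327 and 379 CPM with vehicle and 210.2, 230.0 and 159 CPM after APAP, without overlap. Over all 12 livers *Hal* fell by 35.3% (log2 fold change -0.63, SE 0.17, edgeR adjusted p = 0.0153), and this call was kept in all 20 alternatives that were run for it, with adjusted p-values up to 0.0438. In the edgeR fits within 1 genotype label *Hal* was the only gene of the 10 called, under the KO label (log2 fold change -0.69, SE 0.19, edgeR adjusted p = 0.0330), a call that was lost in 7 of its 15 alternatives. DESeq2 called *Asl* and *Gls2* in WT livers and *Otc* under the KO label as well. In WT livers the log2 fold change of *Hal* was -0.55 (95% interval -1.18 to 0.09, edgeR adjusted p = 0.344), and the difference between the labels for *Hal* was -0.14 (-0.89 to 0.61, adjusted p = 0.954).

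**Figure D2:**
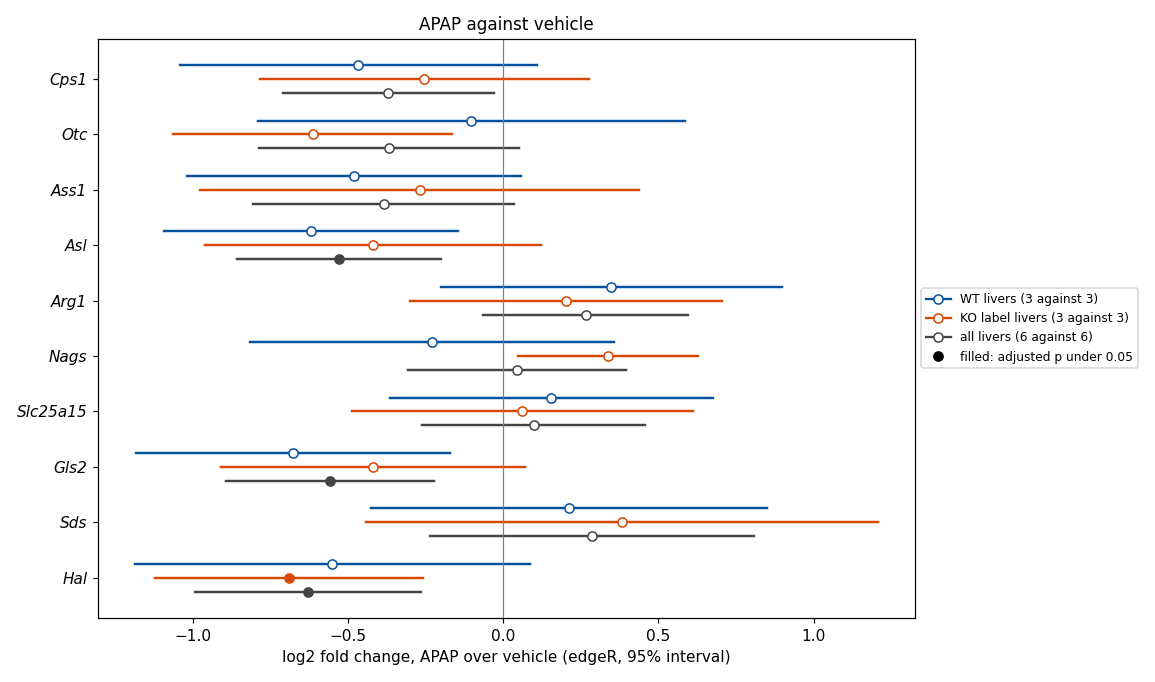
Log2 fold change of APAP over vehicle for each gene (horizontal axis) with 95% intervals, in WT livers (blue, 3 against 3), KO label livers (orange, 3 against 3) and all livers (grey, 6 against 6), with filled points at an edgeR adjusted p under 0.05. The filled points are *Hal* under the KO label (-0.69) and *Asl*, *Gls2* and *Hal* over all livers (-0.53, -0.56 and -0.63).

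Within the WT mice, 0 of the 10 genes were called by edgeR, where 0.427% of the 15693 genes tested were called lower and 1.62% higher. *Asl* and *Gls2* had an unadjusted p under 0.05 there, as 2817 of all genes had. Both were called by DESeq2 (adjusted p = 0.0130 and 0.0325), which called 536 of the 15693 genes lower. *Cps1*, *Ass1*, *Asl* and *Gls2* were lower after APAP without overlap between the WT groups, 4 of 10 genes, against 11.9% of all genes. Under the KO label 1 of 10 was called lower (*Hal*), beside 9.60% of the 15665 genes tested, and none higher, beside 13.0%. DESeq2 called *Otc* lower as well and none higher, and *Nags*, *Otc* and *Hal* were the 3 genes with an unadjusted p under 0.05 in edgeR, as 5804 of the 15665 genes had. *Otc* and *Hal* were lower without overlap under the KO label, 2 of 10 genes against 21.1% of all genes, and *Nags* was higher without overlap, against 21.8%. The alternatives that lost the call of *Hal* under the KO label included all 12 livers in the same fit (edgeR adjusted p = 0.0806).

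The comparisons of the genotype labels asked whether the KO label goes with other levels of these genes with vehicle or after APAP. After APAP 0 of the 10 genes were called between the labels (0.0309% of 16174 genes were), and 0 of 10 had an unadjusted p under 0.05, as 536 genes had by edgeR. DESeq2 also called 0 of the 10. The log2 fold changes of KO label over WT after APAP ran from -0.37 (*Otc*) to 0.14 (*Nags*), and the interval for *Cps1* was -0.46 to 0.55. Of these 10 values 8 were negative, with a median of -0.21 against -0.02 over all genes. Among 38 other amino acid breakdown genes 31 had negative values after APAP. With vehicle 0 of the 10 were called by edgeR or DESeq2 (0.0262% of 15262 genes were by edgeR), and 0 of 10 had an unadjusted p under 0.05, as 1154 genes had. In the vehicle livers 9 of the 10 genes had negative values, with a median log2 fold change of -0.24 against 0.01 over all genes. So did 30 of the 38 other amino acid breakdown genes with vehicle. *Asl*, *Nags* and *Gls2* were lower under the KO label without overlap, 3 of 10 against 6.53% of all genes, with log2 fold changes of -0.48, -0.41 and -0.45 and edgeR adjusted p-values of 0.669, 0.683 and 0.695.

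Single livers weighed on those vehicle values. Without KO label vehicle replicate 1 the log2 fold changes of *Asl* and *Gls2* were -0.29 and -0.25, and without WT vehicle replicate 2 that of *Nags* was -0.15. KO label vehicle replicate 1 was the lowest of its 3 livers for all 10 genes by CPM and for 8 of 10 by TPM. WT vehicle replicate 3 was likewise the lowest of its group for 8 of 10 by CPM and 9 by TPM, and WT APAP replicate 1 for 2 by CPM and 8 by TPM. Across the 12 livers KO label vehicle replicate 1 had the lowest CPM of *Ass1*, *Arg1*, *Slc25a15* and *Sds*. The genotype label by treatment interaction was called for 0 of the 10 genes and for 0% of the 16509 genes, although 848 genes, none of the 10 among them, had an unadjusted p under 0.05 by edgeR. DESeq2 also called 0 of the 10. The widest interval of the interaction was that of *Sds*, -0.92 to 1.26 on the log2 scale.

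**Figure D3:**
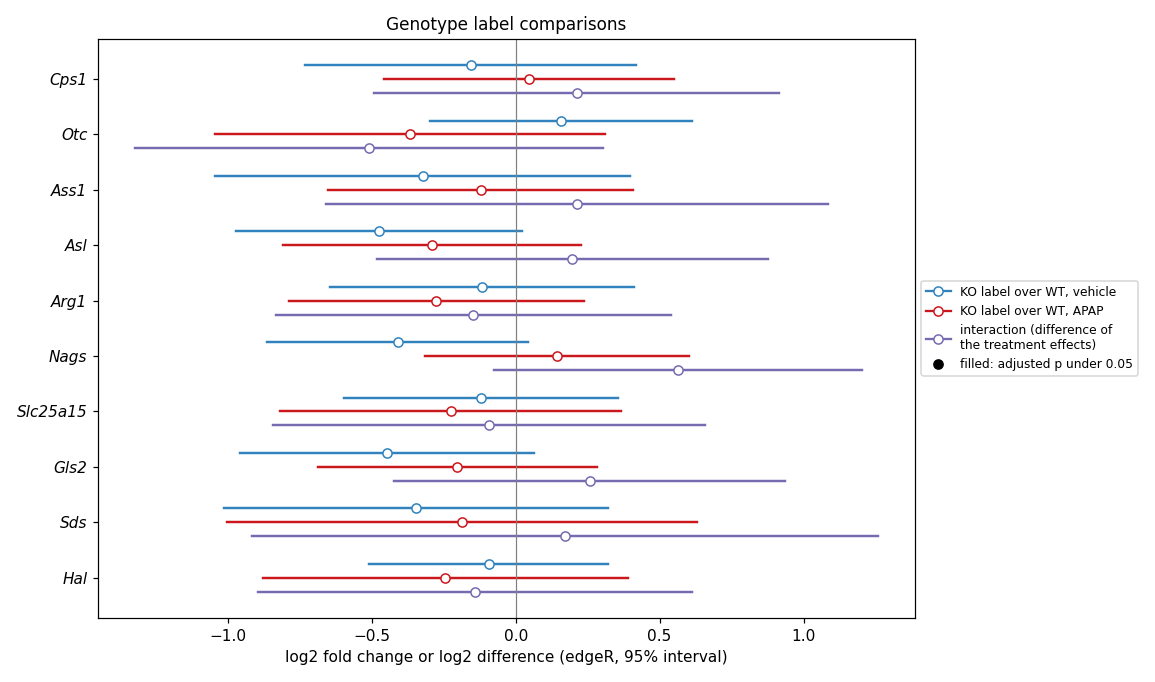
Log2 fold change of the KO label over WT with vehicle (blue) and after APAP (red), and the log2 difference of the treatment effects (interaction, purple), for each gene with 95% intervals from edgeR. All points are open, since no gene passed the adjusted threshold, and every interval crosses 0.

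On the TPM scale the order of the genes differed little between groups. In WT vehicle livers the mean level fell from *Ass1* (2649 ± 543, SD, n = 3) through *Arg1* (1669.8 ± 198), *Cps1* (1462 ± 318), *Asl* (1026 ± 151), *Sds* (526 ± 81.7), *Gls2* (287 ± 51.7), *Hal* (194 ± 12.6), *Otc* (174 ± 13.9) and *Slc25a15* (141 ± 32.0) to *Nags* (48.7 ± 10.4). *Arg1* overlapped *Cps1*, *Hal* overlapped *Otc*, and *Otc* overlapped *Slc25a15*, whereas the other neighbours in this order did not overlap. The most abundant gene stood 54.4 times above the least. After APAP *Arg1* was the most abundant in both genotype labels, at 2012 ± 644 in WT livers and 2132 ± 249 under the KO label, but its range overlapped that of *Ass1* in both. *Hal* stood at rank 7 with vehicle and rank 9 after APAP in WT livers, and at ranks 8 and 9 under the KO label. After APAP *Hal* spanned 78.3 to 216 TPM in WT livers and 108 to 152 TPM under the KO label. It overlapped *Otc*, at rank 8, under both labels. All 10 genes together made up 0.574% to 0.950% of the TPM total of vehicle livers and 0.460% to 0.877% of that of APAP livers, with WT APAP replicate 1 at the low end.

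Of 25 partner genes that feed or drain the cycle (carriers, transaminases, ammonia and glutamine enzymes, mitochondrial deacylases), 13 fell and 0 rose over the 12 livers by edgeR (14 and 2 by DESeq2), with a median of -0.46 on the log2 scale. Over all genes tested 11.4% were called lower and 14.0% higher by edgeR. Whether the partners differed from the 10 genes was not tested. Without WT APAP replicate 1, 14 fell and 1 rose. *Slc25a13*, the aspartate and glutamate carrier that supplies aspartate to the step of *Ass1*, went from 239.7 to 319 CPM with vehicle to 149 to 188 CPM after APAP, without overlap (log2 fold change -0.82, SE 0.11, edgeR adjusted p = 2.06e-04). *Oat*, which breaks down ornithine, fell by 1.52 on the log2 scale (SE 0.19), and *Glul*, glutamine synthetase of the pericentral rim, fell by 2.25 (SE 0.29). The pericentral marker list holds 4 of the 25 partners (*Oat*, *Glul*, *Slc1a2* and *Rhbg*), all of which fell, and among the other 21 partners 9 fell, with a median of -0.30. *Car5a*, the mitochondrial carbonic anhydrase that supplies bicarbonate to the *Cps1* step, was named after its value was seen: it fell by 1.04 (SE 0.19, edgeR adjusted p = 0.00168).

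Of 38 other amino acid breakdown genes, 21 fell and 4 rose over the 12 livers (median log2 fold change -0.39), and 24 fell and 4 rose without WT APAP replicate 1. Of all genes tested over the 12 livers, 11.4% were called lower and 14.0% higher. *Afmid*, of the kynurenine pathway of tryptophan, fell by 1.59 (SE 0.16), and *Kmo* of the same pathway by 0.76 (SE 0.09). Those that rose included *Sdsl*, *Gldc* (0.45) and *Cdo1* (0.42), the last pair named after their values were seen. *Hal* was not alone in its own pathway: *Uroc1* and *Ftcd*, which act later in histidine breakdown and were named after their values were seen, fell by 0.55 and 0.45 (edgeR adjusted p = 0.00570 and 0.00457), and *Amdhd1* had a log2 fold change of -0.28 (adjusted p = 0.290).

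**Figure D4:**
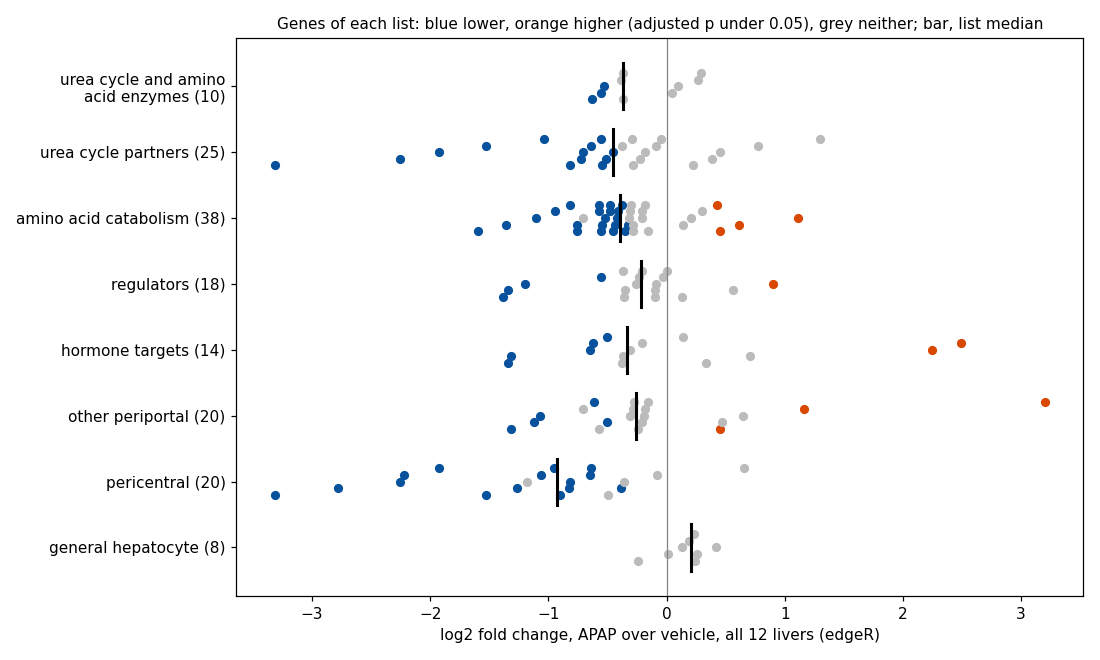
Log2 fold change of APAP over vehicle in all 12 livers (horizontal axis) for each gene of 8 lists, blue where lower and orange where higher at an edgeR adjusted p under 0.05, grey otherwise, with a black bar at the list median. The 10 urea cycle and amino acid genes lie between -0.63 and 0.29, a narrower span than the pericentral genes, whose median was -0.93.

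Markers of liver zones and of other cell types were compared after APAP as well, where 11.4% of all genes tested were called lower and 14.0% higher by edgeR. Of 20 pericentral markers 15 fell (16 by DESeq2) and 0 rose by either tool after APAP over the 12 livers (median log2 fold change -0.93), of 20 periportal markers other than the 10 genes 5 fell and 3 rose (median -0.26), and of 8 general hepatocyte markers 0 were called by edgeR, which gave none of them an unadjusted p under 0.05, and 1 was called lower by DESeq2 (median 0.21, and 0.07 without WT APAP replicate 1). *Cyp2e1*, the cytochrome P450 that activates APAP in pericentral cells, fell by 1.06 (SE 0.14), and the periportal markers *Igfals* and *Pck1* fell by 1.07 (SE 0.15) and 1.31 (SE 0.18). *Sox9*, which is on both the periportal and the cholangiocyte list, had the smallest p of either and rose by 3.20 (SE 0.32, edgeR adjusted p = 2.59e-05), without overlap. All 6 neutrophil markers that passed the filter had positive values with an unadjusted p under 0.05 (median 2.74), of which 1, *Cxcr2*, was called higher. The number called was 0 without most of the single livers, among them WT APAP replicate 1 (median 1.79), and 4 without WT vehicle replicate 2, whose neutrophil markers summed to 19.7 CPM against 1.20 to 2.47 CPM in the other vehicle livers. In the APAP livers the sum was 12.7 to 131 CPM in WT livers and 1.15 to 8.55 CPM under the KO label. Between the labels after APAP 0 of the 6 tested markers were called by edgeR (0.0309% of 16174 genes were). All 6 had an unadjusted p under 0.05 there, as 536 genes had. Of the 8 markers, 1 to 4 had no count in KO label APAP livers and 0 to 2 in WT APAP livers. Of 6 endothelial markers 2 rose (*Lyve1* and *Pecam1*), of 5 cholangiocyte markers 2 rose (*Sox9* and *Epcam*, of which 1 was called without KO label APAP replicate 1 or WT vehicle replicate 3), and of 6 stellate markers 1 fell (*Lrat*), a call that was lost without most of the single livers. Of 8 Kupffer cell and 5 erythroid markers 0 were called by edgeR or DESeq2, and 0 had an unadjusted p under 0.05. The summed pericentral TPM ran from 10840.3 to 15042 in vehicle livers and from 3853 to 9196 in APAP livers, without overlap, whereas the summed TPM of the 10 genes ran from 5737 to 9499.9 and from 4597 to 8766. The log2 ratio of the 10 genes to the pericentral markers lay between -1.39 and -0.50 in vehicle livers and between -0.19 and 0.25 in APAP livers. The part of these marker shifts in the results for the 10 genes was not tested.

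**Figure D5:**
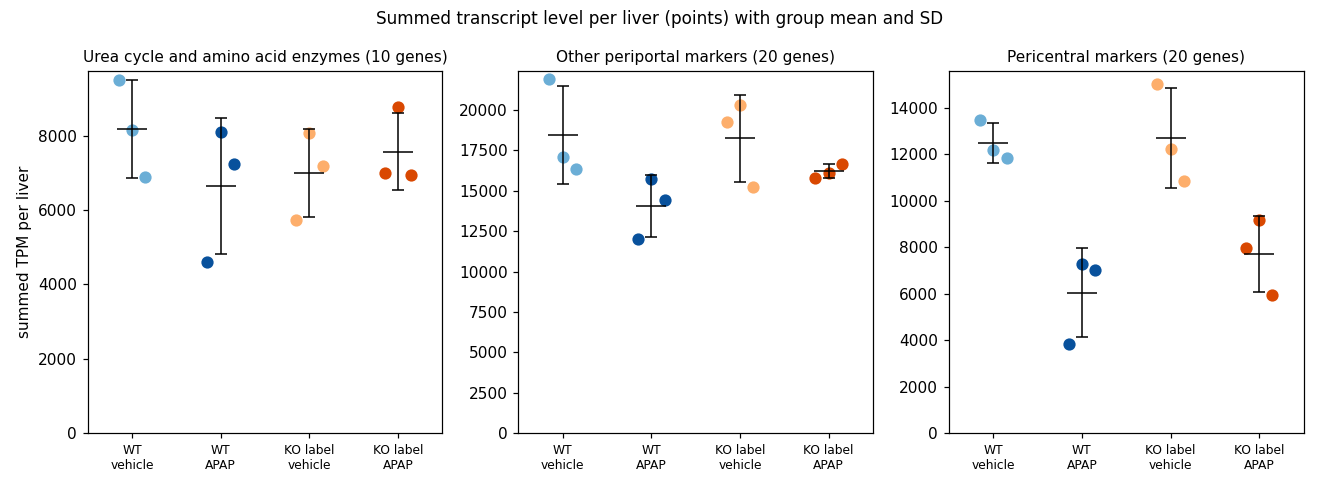
Summed TPM per liver of the 10 urea cycle and amino acid genes, of 20 other periportal markers and of 20 pericentral markers, with points for livers, bars for group means and whiskers for the SD (n = 3 per group). The pericentral sums of the APAP livers, 3853 to 9196, all lie below those of the vehicle livers, while the sums of the 10 genes overlap.

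Among the genes whose profiles over the 12 livers were nearest to each of the 10, measured as the root-mean-square difference between centred and scaled log2 CPM values, the closest pair within the 10 was *Asl* and *Gls2*. The difference between them was 0.308, and no other of 16508 genes was nearer to *Asl*. For *Gls2* a single gene outside the 10, *Ces1b*, was nearer (0.282). The nearest gene to *Ass1* was its pseudogene *Gm5424* (0.344), followed by *Asl* (0.394). *Hal* lay nearest to *F7* (0.379), *Otc* to *Pdcd6* (0.282), *Cps1* to *Zkscan1* (0.494), *Nags* to *Asxl1* (0.374) and *Sds* to *Atl2* (0.319). *Slc25a15* and *Arg1* shared *Mrps31* as their nearest gene (0.343 and 0.461). The points share library, depth and scaling, and these likenesses are descriptions only.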

How the data were processed

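Liver RNA-seq of 12 mice was analysed, 3 per group, grouped by the submitters' labels. The authors deposited a single table with read counts per gene, without normalization, beside FPKM and TPM values (both divided by transcript length and library size). FPKM values deposited by the authors were not used. Libraries were made from poly-A RNA with a stranded kit. The submitters' processing notes name FastQC 0.11.7, Trimmomatic 0.38, HISAT2 2.1.0, Bowtie2 2.3.4.1 and StringTie 2.1.3b and the build mm10 (GRCm38), without saying which tool made the counts. The treatment of reads that match several genes is not given in the sources used here. Replicates were separate livers.

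Counts were scaled by TMM, filtered with filterByExpr and compared in edgeR 4.0.16 (R 4.3.3, glmQLFTest) on the 6 livers compared, or on all 12 for APAP against vehicle with the genotype label as covariate and for the interaction. Adjusted p-values (Benjamini-Hochberg, threshold 0.05) cover all genes tested. The study itself tested log-transformed, quantile-normalized TPM. Intervals are 95% intervals of the log2 fold change. Alternatives were median-of-ratios size factors in edgeR, DESeq2 1.42.0 with its Wald test, the newer quasi-likelihood method, no filter, at least 10 counts in every sample, limma 3.58.1 on TPM (quantile-normalized on the log2 scale, with 1 or 0.1 added), a replicate block, all 12 livers in the same fit, and each liver left out in turn. The steps were tested on simulated data.

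The 10 genes and the lists of partners, amino acid breakdown genes, regulators, hormone targets and markers were chosen with earlier results of these data known. All 10 genes are named in every comparison. From each list at most 3 genes with the smallest unadjusted p over the 12 livers are named, with the paralogs *Sdsl* and *Arg2*. *Slc1a2* and *Rhbg*, as partners on the pericentral list, and *Amdhd1*, beside *Uroc1* and *Ftcd*, were also named with their values known. Any further name from the lists is marked where it appears as picked with its value known. Values of a few genes that this rule or the lists hold are not reported here. Coordinates and promoters came from RefSeq (GRCm38.p6), and similar transcripts from a BLAST search of GENCODE vM21 transcripts at 95% identity or more.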

Additional observations from a re-analysis of the deposited data

How the results depend on the processing

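Over all 12 livers 3 of the 10 genes were called under each of the 8 other settings (among them the replicate block, DESeq2, limma on TPM and other filters), and 1 to 5 when each liver was left out: 1 (*Hal*) without KO label APAP replicate 3 and 5 without KO label vehicle replicate 1. Under the KO label the count moved from 1 to 2 with the Wald test of DESeq2 and with the newer quasi-likelihood method of edgeR, *Otc* joining *Hal*. It moved to 0 with limma on log2(TPM + 0.1), with the replicate block and with all 12 livers in the same fit, and ranged from 0 to 3 with each liver left out. In WT livers it was 0 except for 2 with the Wald test of DESeq2. In the 2 comparisons of genotype labels and the interaction it was 0 in every setting. Samples with the same number did not deviate together (correlations -0.30 to 0.04), so the numbers were not treated as pairs, and 0 of 6 WT livers and 4 of 6 KO label livers correlated best with their own number across treatments. Beside the block counts above, the block called 2761 genes under the KO label (3538 without it) and 62 in WT livers (322 without it). No called log2 fold change of the 10 genes changed its sign. Of 1000 recomputed values 42 changed sign, all of genes not called in either fit. Over all genes the split of calls was 2307 higher and 1880 lower with edgeR, 2320 and 1861 with median-of-ratios size factors, and 1944 higher and 2447 lower with limma on log2(TPM + 1), which differs in test, measure and normalization together. In simulated data of the WT layout 11 of 99 genes changed 2-fold were recovered. With 12 livers 63 of 99 were recovered for APAP against vehicle, and 10 of 98 for the interaction. Smaller changes were not simulated. The changed genes were drawn at random from all genes tested, with a spread taken from the trend over genes. For APAP against vehicle over 12 livers, far fewer genes were changed than were called in the data. The recovery is therefore not that of the 10 genes.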

Other observations

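Genes known to act on, or to report, the hormonal control of urea cycle genes were compared over the 12 livers after APAP. Of 18 regulator genes 4 fell and 1 rose (median log2 fold change -0.22), where 11.4% of all genes tested were called lower and 14.0% higher. The glucocorticoid-responsive factor *Klf15* fell by 1.38 (SE 0.19), *Ppara*, the fatty acid sensor of fasting, by 1.20 (SE 0.17), and *Gcgr*, the glucagon receptor, by 0.56 (SE 0.11), all without overlap and with edgeR adjusted p-values from 3.20e-04 to 0.00255. Named after their values were seen, *Tsc22d3* fell by 1.34 and *Cebpb* rose by 0.90 (SE 0.22, edgeR adjusted p = 0.00883), while *Cebpa* had a log2 fold change of -0.26 (adjusted p = 0.282). Without WT APAP replicate 1 the same counts, 4 and 1, were found, with a median of -0.06.

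Of 14 targets of glucagon, glucocorticoid or fasting, 5 fell and 2 rose by edgeR, the latter a share near that over all genes. Among all genes tested 11.4% were called lower and 14.0% higher. With median-of-ratios size factors, with no filter, and with at least 10 counts in every sample, 4 fell and 2 rose. *Pdk4*, which restrains pyruvate oxidation, rose by 2.25 (SE 0.28), and *Pck1*, of gluconeogenesis, and *Cpt1a*, of fatty acid oxidation, fell by 1.31 (SE 0.18) and 0.65 (SE 0.11), each without overlap (edgeR adjusted p = 1.43e-04, 2.72e-04 and 0.00123). *Igfbp1*, named after its value was seen, rose by 2.49 (SE 0.64, edgeR adjusted p = 0.0128). *Tsc22d3* and *Fbp1*, also named after their values were seen, were among the other falls.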
